A study of Mus musculus with 10 samples.

Results

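Accessible chromatin of revitalized mesenchymal stromal cells (rMSC), mouse bone marrow stroma transduced in culture with 5 genes, was compared with that of control stroma transduced with a control vector. The 5 genes were Klf7, Ostf1, Xbp1, Irf3 and Irf7. All 3 rMSC libraries and all 3 control libraries were used, 6 of the 10 libraries of the series, as their labels assign them. The other libraries, from freshly sorted Scf-GFP-positive (n = 2) and Scf-GFP-negative stroma (n = 2), served only as a reference and to estimate the spread in the model. All cells were of strain C57BL/6J. Control and rMSC cultures both began from Scf-GFP-positive stromal cells that lacked the blood markers CD45 and Ter119 and the endothelial marker CD31, grown in a medium with 20% serum and 10 ng/ml basic FGF, so both cultures shared serum and growth factor. The labels do not say whether the replicates came from separate animals, transductions or cultures, so every p-value below rests on how far these libraries scatter, and that scatter may be technical.

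Scf-GFP reports expression of Kitl, which encodes stem cell factor. Stromal cells of the marrow feed blood stem cells with this ligand and with the chemokine Cxcl12, and they lose much of that support when grown on plastic. Klf7 is a zinc finger transcription factor, Ostf1 a signalling adaptor first described in osteoclasts, Xbp1 a bZIP factor of the unfolded protein response, and Irf3 and Irf7 are the interferon regulatory factors that switch on type I interferon genes. ATAC-seq cuts open DNA with a transposase, and a peak marks a stretch cut more often than its surroundings. Promoter peaks are shared by many cell types, while distal peaks, often enhancers, differ more between cell types.

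Each library came as a list of peaks called on that library alone, 48417 to 75376 in control and 66282 to 78489 in rMSC. Peak number moves with sequencing depth, which is unknown here, so lists of equal length were used: the 33399 peaks with the highest deposited −log10 p on 17 chromosomes, and on chromosomes 4, 10 and 15, whose peak numbers shifted as a whole, the peaks above the same limit. A peak missing from a list may still be open, and a peak present in fewer cells cannot be told apart from a weaker one. Control replicate 1 was the smallest library and, with rMSC replicate 1, ran on another flow cell than replicates 2 and 3. A promoter peak was listed in all 6 libraries for 12 of 21 stromal regulators and markers with a known start, among them Foxc1, Twist1, Ebf3 and Cd44, against 0 of 22 blood cell markers and 0 of 11 endothelial markers. Summed over the 33 blood markers, the loci held 39 to 40 peak summits in control and 41 to 43 in rMSC, and the 20 endothelial markers held 30 to 35 and 27 to 31.

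At the transduced genes themselves no locus passed the test with the settings used here. A locus is the gene body plus 10 kb beyond each end, and the number of peak summits in it was tested with limma on log2(summits + 0.5), with Benjamini-Hochberg adjustment over 8872 loci and a threshold of 0.05. Irf3 came nearest, with 1, 2 and 1 summits in control replicates 1 to 3 and 3, 5 and 6 in rMSC replicates 1 to 3, so the groups did not overlap (log2 change 1.49 ± 0.32 (SE), limma adjusted p = 0.0553). Of all loci tested on the 17 chromosomes, 8.67% had more summits in rMSC without overlap. Irf3 passed with 1 in place of 0.5 added to the counts (1.27, limma adjusted p = 0.0492) and had no such difference with flanks of 50 kb (-0.04). The added Irf3 summits lay inside the gene, which is 5201 bp long on chromosome 7. Beyond 1 kb from the start, rMSC replicate 1 had summits at 1.11 and 3.23 kb, replicate 2 at 1.11, 2.34, 3.20 and 4.11 kb, and replicate 3 at 1.18, 2.35, 3.30, 4.07 and 4.54 kb. In control only replicate 2 had such a summit, at 1.06 kb. The peak at the Irf3 start was no stronger in rMSC, with a deposited −log10 p of 25.3, 25.5 and 22.5 against 27.6, 21.9 and 38.5 in control. Whether the transduced copies gave these peaks was not tested. Irf7 had 3, 1 and 1 summits in control and 2, 2 and 3 in rMSC (adjusted p = 0.548 with limma), Klf7 2, 3 and 4 against 2, 5 and 5, Ostf1 3, 5 and 4 against 5, 5 and 4, and Xbp1 3, 2 and 1 against 2, 2 and 3. Summit numbers at these 4 loci overlapped between the cultures, with limma adjusted p up to 0.793. All 5 genes had a promoter peak in all 6 libraries. The strength of the peak at the start did not overlap at Irf7 and Klf7. At Irf7 the deposited −log10 p was 20.7, 18.4 and 27.2 in control and 38.9, 34.7 and 40.6 in rMSC. At Klf7 it was 79.9, 84.5 and 85.5 in rMSC and 91.6 or more in every control library. At Irf3, Ostf1 and Xbp1 the strengths overlapped. These strengths were not tested.

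Niche ligands overlapped between the cultures as well. Kitl, on chromosome 10, held 6, 6 and 6 summits in control and 4, 3 and 6 in rMSC (limma adjusted p = 0.729), with a promoter peak in all 6 libraries. Cxcl12 held 2, 4 and 3 against 3, 2 and 2 (limma adjusted p = 0.795), and its promoter peak was listed in 3 control libraries and in 1 rMSC library. Of 24 niche factors, 16 were tested and 0 passed in either direction. Their median log2 change was 0.10 on the 17 chromosomes, against 0.00 over all loci tested there. For the 3 tested on chromosomes 4, 10 and 15, Kitl among them, it was -0.40, against 0.18 over all loci tested on those chromosomes.

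Peaks away from promoters were shared less between the cultures than promoter peaks were. The share of summits of 1 library that fell in a peak of another was taken as their likeness, separately for summits within 1 kb of a gene start and for distal ones. At promoters, control libraries shared 90.3% to 91.0% with each other, rMSC libraries 90.6% to 91.1%, and libraries of different cultures 86.6% to 88.4%. At distal sites the same shares were 67.9% to 69.7%, 69.4% to 70.7% and 50.3% to 52.8%. In both classes every pair from different cultures was less alike than every pair from the same culture. Mean likeness within cultures exceeded that between them by 3.14 percentage points at promoters and 17.8 at distal sites, each with a one-sided exact permutation p of 0.100, the smallest that 3 against 3 libraries allow. Whether the 2 differences differ from each other was not tested. On the single flow cell that holds replicates 2 and 3, the differences were 3.06 and 17.7 (exact p = 0.333, again the smallest possible).

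**Figure D1:**
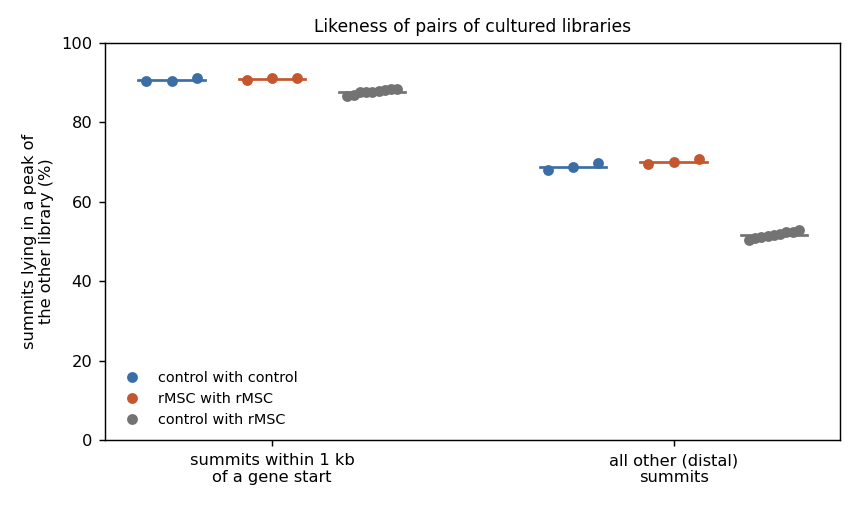
Share of summits of 1 library found in a peak of another (percent), 1 point per pair of libraries, for summits within 1 kb of a gene start and for distal summits. Pairs from different cultures lie between 86.6% and 88.4% at promoters and between 50.3% and 52.8% at distal sites, below all pairs from the same culture.

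The kinds of place where summits lay were similar in the 2 cultures. Summits within 1 kb of a gene start made up 29.1%, 27.4% and 28.5% of the control lists and 28.4%, 28.4% and 28.8% of the rMSC lists. Summits elsewhere in a gene made up 35.9%, 36.9% and 36.5% in control and 37.5%, 37.7% and 37.1% in rMSC. Summits more than 50 kb from any gene made up 11.9%, 12.1% and 11.6% in control and 10.5%, 10.5% and 10.4% in rMSC. The 2 cultures did not overlap in these last classes (differences of 1.02 and -1.40 percentage points, two-sided exact permutation p = 0.100 each, the smallest possible), and they did for promoters (0.208 points, exact permutation p = 0.90).

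Single promoters differed in both directions and in like number. A promoter was the window from 250 bases before to 50 after a gene start. Of 14956 genes with a known start on the 17 chromosomes, 6523 (43.6%) had a promoter peak in all 6 libraries and 6701 (44.8%) in none. A peak in 3 of 3 rMSC and 0 of 3 control libraries was seen for 104 genes (0.695%), and the reverse for 95 (0.635%). The first are called opened and the second closed, a description of presence in the lists with no test. By the strength of the peak, the leading genes opened in rMSC included Hs3st1, a heparan sulfate sulfotransferase, Nrxn3, a neurexin adhesion protein, Cd46, a complement regulator, and Sdr39u1, Stpg2 and Ctla2b. Those closed were led by Camp, an antimicrobial peptide, Rnf26, Ephb4, an ephrin receptor, Adgra1 and Cdc42ep5, a Cdc42 effector. Hs3st1 went from 0, 0 and 0 summits in its locus to 3, 3 and 3, and Ephb4 from 1, 1 and 1 to 0, 0 and 0. Both promoters were open in 2 of 2 Scf-GFP-positive libraries. The uncharacterized genes LOC115489044 (opened) and Gm33851 (closed) headed the 2 directions, and summits in their loci did not follow. LOC115489044 held 2, 2 and 2 in both cultures, and Gm33851 1, 2 and 1 in control and 3, 2 and 2 in rMSC. A promoter window can thus lose or gain a listed peak while the locus does not.

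Among the gene lists, promoters opened at 1 of 21 stromal regulators and markers, Nt5e (CD73, a surface marker of mesenchymal stromal cells). Regions of that stromal list, given below, were more often of control alone than of rMSC alone. Promoters also opened at 1 of 9 chondrocyte genes (Sox6), 3 of 25 PDGF and FGF genes (Pdgfd, Pdgfc and Fgf5) and 2 of 38 interferon genes (Oas1a and Ifi44). Promoters closed at Col3a1, the gene of type III collagen, at the Wnt5a receptor gene Ror2, and at the guidance receptor genes Nrp1 and Ephb1. On chromosomes 4, 10 and 15, 24 of 2318 promoters opened (1.04%), led by Tmem117 and including the netrin gene Ntn4, and 15 closed (0.647%), led by Slc17a8 and Brinp1 and including Ephb2. Closed promoters did not always go with fewer summits in the locus. Nrp1 held 6, 3 and 6 in control and 6, 5 and 3 in rMSC, and Slc17a8 1, 1 and 1 against 2, 2 and 2. The bases before the start of 6 of the changed promoters are printed, 4 opened and 2 closed, to show how unlike they are in base composition. They are from RefSeq on build GRCm38.p6. Hs3st1 and Ephb4 were named for the rank of their peaks, and Oas1a, Pdgfd, Nt5e and Col3a1 were picked after their values were seen. Capitals mark matches to the motifs searched, listed below.
Hs3st1, opened, chr5:39644632-39644881, minus strand: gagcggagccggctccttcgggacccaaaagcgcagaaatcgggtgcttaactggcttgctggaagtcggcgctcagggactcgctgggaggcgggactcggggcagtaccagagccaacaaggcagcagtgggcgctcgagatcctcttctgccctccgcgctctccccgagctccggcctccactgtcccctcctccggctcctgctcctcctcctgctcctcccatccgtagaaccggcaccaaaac
Oas1a, opened, chr5:120907526-120907775, minus strand: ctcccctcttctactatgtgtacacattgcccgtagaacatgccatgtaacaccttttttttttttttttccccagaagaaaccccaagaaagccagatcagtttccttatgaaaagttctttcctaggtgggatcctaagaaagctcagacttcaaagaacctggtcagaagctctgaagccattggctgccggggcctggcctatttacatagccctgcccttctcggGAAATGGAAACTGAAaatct
Pdgfd, opened, chr9:6168236-6168485, plus strand: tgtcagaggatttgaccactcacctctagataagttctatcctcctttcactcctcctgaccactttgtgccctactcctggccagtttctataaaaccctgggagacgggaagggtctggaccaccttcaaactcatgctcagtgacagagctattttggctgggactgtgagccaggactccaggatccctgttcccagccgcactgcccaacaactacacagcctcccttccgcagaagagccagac
Nt5e, opened, chr9:88327359-88327608, plus strand: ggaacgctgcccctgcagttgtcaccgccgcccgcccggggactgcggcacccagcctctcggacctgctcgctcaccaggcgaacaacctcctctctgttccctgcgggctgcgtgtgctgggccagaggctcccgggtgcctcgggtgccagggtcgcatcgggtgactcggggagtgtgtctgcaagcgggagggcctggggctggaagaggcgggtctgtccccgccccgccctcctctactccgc
Col3a1, closed, chr1:45311288-45311537, plus strand: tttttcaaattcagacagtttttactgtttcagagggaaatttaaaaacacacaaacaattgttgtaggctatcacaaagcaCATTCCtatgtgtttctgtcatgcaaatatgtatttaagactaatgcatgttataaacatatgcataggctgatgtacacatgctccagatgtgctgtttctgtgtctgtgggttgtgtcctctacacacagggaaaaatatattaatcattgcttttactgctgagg
Ephb4, closed, chr5:137349859-137350108, plus strand: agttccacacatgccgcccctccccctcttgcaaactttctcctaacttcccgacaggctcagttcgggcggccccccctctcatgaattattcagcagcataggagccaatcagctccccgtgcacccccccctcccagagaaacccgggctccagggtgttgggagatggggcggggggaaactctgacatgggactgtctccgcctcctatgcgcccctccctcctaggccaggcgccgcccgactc
GC content was 66.0% at Hs3st1, 72.0% at Nt5e and 64.0% at Ephb4, against 53.6% at Pdgfd, 45.2% at Oas1a and 35.2% at Col3a1. The capitals in Oas1a are a run holding 2 overlapping matches to GAAANNGAA, the letters of an interferon regulatory factor site, and those in Col3a1 match GGAATG, the TEAD letters, on the other strand.

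Over all opened promoters the interferon letters were in no larger share than over all windows. GAAANNGAA, read on either strand, was in 8 of 138 start windows open only in rMSC (5.80%, exact Clopper-Pearson 95% interval 2.54% to 11.1%), in 5.50% of 109 windows open only in control, and in 8.17% of all 18143 windows. The letters CCACCC, bound by KLF factors, were in 35.5%, 41.3% and 33.7%, and the XBP1-like letters ACGTGNC in 4.35%, 10.1% and 8.86%. TGACGTG, the other XBP1-like form, which shares letters with ACGTGNC where they overlap, was in 0.725%, 1.83% and 2.22%. The AP-1 letters TGANTCA were in 15.2% of windows open only in rMSC (9.67% to 22.3%), in 6.42% (2.62% to 12.8%) of those open only in control and in 7.25% of all windows. The EBF letters CCCNNGGG were in 24.6% (17.7% to 32.7%), 16.5% and 15.6%. RUNX letters (TGTGGTT) were in 7.25%, in 0 of 109, which allows up to 3.33%, and in 4.83%, and TEAD letters in 15.9%, 16.5% and 13.6%. Median GC content was 58.0% in windows open only in rMSC, 60.3% in those open only in control and 56.3% over all, so the sets differed in base composition. Windows were counted per gene start, so a gene with several starts, such as Sdr39u1, can enter more than once with overlapping windows. The intervals cover counting error only and treat windows as independent, so they may be too narrow. A match is not a bound site.

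Across gene loci the difference ran both ways. On the 17 chromosomes 7361 loci were tested. More summits in rMSC were called at 108 (1.47%), lying at 104 separate places, and fewer at 93 (1.26%), at 89 places. At an unadjusted p under 0.05 there were 735 and 524. The cultures did not overlap at 638 loci with more summits in rMSC (8.67%) and at 482 with fewer (6.55%). Of the called loci with a known start, 56 of 83 that gained and 35 of 67 that lost had a promoter peak in all 6 libraries, while the promoter itself opened at 3 and closed at 5. The counts are small whole numbers, and 36 of the 201 calls, 25 that gained and 11 that lost, had the same count in all 3 libraries of each culture, which a linear model reads as no spread. Leaving out each library in turn kept 17 calls in each direction in each fit where they were tested. With control replicate 1 left out, 43 of the 201 remained, and 70 to 82 without any 1 of the others. With all deposited peaks in place of equal lists 9 remained, and with the flow cell as a term in the fit 103. Of the loci named by rule on the 17 chromosomes, that term ended the calls at Dtna, Ggta1, Zfp697, Zfp521, Galnt17, Adamts9, Nnmt, Dscam, Phex, Tgfbr3, Ncam1, Parp14 and Ifi27 (limma adjusted p from 0.0511 to 0.0768). Lists made equal on each chromosome ended those at Slc24a3, Dock9, Cdc42ep3, Ggta1, Pkd1, Nnmt, Tgfbr3, Ncam1 and Phex (limma adjusted p from 0.0555 to 0.278). A locus was tested at a mean of 2 or more summits over the 6 libraries, so those with 0 in every library of 1 culture (Xylt1, Tiam1, Hoxb6, Galnt17, Musk, Pdgfd and Myf6 among those named) were tested only through the other. Loci with a mean under 2 in 1 culture also reached that limit only through the other culture. For calls where that mean was under 1, or where neither culture had any spread, the p with the settings used here is not given below. At means from 1 to 2, as at Fry, Fam189a1, Csgalnact2 and Wif1, the p is given as a description. Calls that did not hold in every left-out fit are therefore given below with the adjusted p at its highest.

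**Figure D2:**
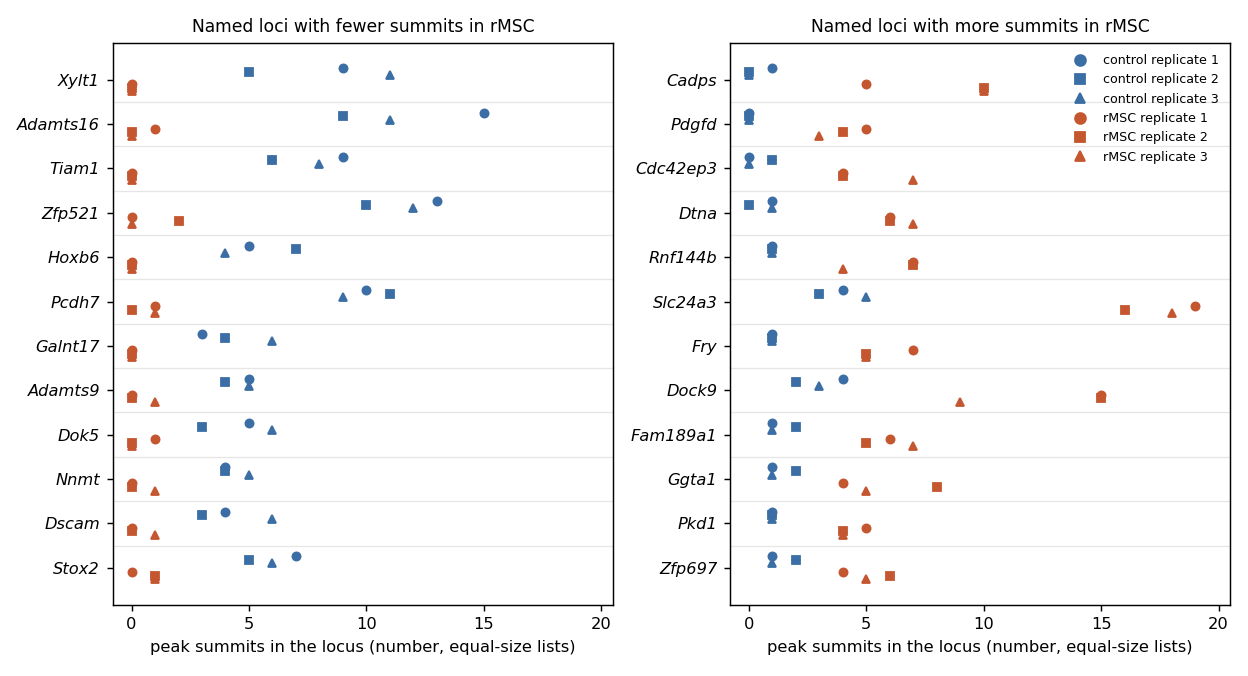
Peak summits per locus (gene body plus 10 kb beyond each end) in equal-length lists, 1 point per library, for the named loci with more and with fewer summits in rMSC on the 17 chromosomes. Tiam1, Xylt1, Hoxb6 and Galnt17 sit at 0 in all 3 rMSC libraries, and Pdgfd at 0 in all 3 control libraries.

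Among the named loci on the 17 chromosomes the largest falls were at Xylt1, Adamts16 and Tiam1. Xylt1 encodes the xylosyltransferase that starts glycosaminoglycan chains on proteoglycans, and its locus (chr7:117380979-117667630 without flanks) held 9, 5 and 11 summits in control and 0 in every rMSC library. Tiam1, an exchange factor that activates Rac, went from 9, 6 and 8 to 0, 0 and 0. Xylt1 and Tiam1 reached the mean for the test through control alone, so their p with the settings used here is not given. Adamts16, a secreted metalloprotease, went from 15, 9 and 11 to 1, 0 and 0 (-4.05 ± 0.42). Adamts16 too reached that mean through control alone, and its p is likewise not given. The Adamts16 call held whichever library was left out. The sorted Scf-GFP-positive libraries held 8 and 14 summits at Xylt1, 8 and 4 at Tiam1 and 4 and 4 at Adamts16. The Scf-GFP-negative ones held 13 and 14, 10 and 12, and 0 and 0, so at Adamts16 only the Scf-GFP-positive sorted libraries held summits. At Xylt1, 5 of 11 merged regions were present in all control and no rMSC library, and 4 of these were also present in sorted Scf-GFP-positive stroma. The Xylt1 call was lost with all deposited peaks (limma adjusted p = 0.0938) and on replicates 2 and 3 alone (0.0865), and that at Adamts16 was not.

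The protocadherin gene Pcdh7 fell from 10, 11 and 9 to 1, 0 and 1 (-3.33 ± 0.40), a call lost without control replicate 1 (limma adjusted p = 0.050, not under the threshold), with all deposited peaks (0.0880) and on replicates 2 and 3 alone (0.228). Zfp521, a zinc finger cofactor of mesenchymal and blood progenitors, held 13, 10 and 12 summits in control and 0, 2 and 0 in rMSC. Pcdh7 and Zfp521 reached the mean for the test through control alone. Hoxb6 held 5, 7 and 4 against 0, 0 and 0, and the overlapping loci of its neighbours Hoxb5, Hoxb7, Hoxb8 and Hoxb9 were called with it. Hoxb6 reached the mean for the test through control alone, so its p with the settings used here is not given. In sorted libraries of both kinds the Hoxb6 locus held 0 or 1 summit, unlike Xylt1 and Tiam1. Also called were Galnt17, a glycosyltransferase, Adamts9, a metalloprotease, Nnmt, nicotinamide N-methyltransferase, the adhesion gene Dscam, the adaptor gene Dok5 and Stox2, each with 3 to 7 summits in every control library and 0 or 1 in every rMSC library. The calls at Zfp521, Hoxb6 and these 6 loci did not hold without 1 or more single libraries. Leaving out control replicate 1 ended all 8, each of the other 5 libraries ended 3 or more, and the highest limma adjusted p was 0.139, at Zfp521 without rMSC replicate 3. The calls at the 4 Hoxb neighbours were also lost without single libraries, with limma adjusted p up to 0.130 at Hoxb5 and Hoxb9 without rMSC replicate 3.

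Some smaller falls also held whichever library was left out. Ebf1, a transcription factor of early B cells that marrow stroma also expresses, fell from 14, 15 and 19 to 8, 8 and 7 (-1.01 ± 0.13, limma adjusted p = 0.0133), a call lost with all deposited peaks (0.187), with no flank (0.222) and on replicates 2 and 3 alone (0.133). Dnm3, a dynamin named here after its values were seen, fell from 25, 24 and 26 to 10, 11 and 13 (-1.11 ± 0.12, limma adjusted p = 0.00647). Csgalnact2, which starts and extends chondroitin sulfate chains, and P4ha3, a collagen prolyl hydroxylase, also seen first by their values, went from 3, 4 and 3 to 1, 1 and 1 and from 5, 4 and 5 to 2, 2 and 2 (limma adjusted p = 0.00237 and 0.00683).

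Among gains, Pdgfd, a growth factor for PDGF receptor beta, held 0 summits in every control library and 5, 4 and 3 in rMSC, in step with its opened promoter printed above. The sorted libraries held 2 and 3 (Scf-GFP-positive) and 4 and 7 (Scf-GFP-negative). Pdgfd reached the mean for the test through rMSC alone and in only 3 of the 6 left-out fits, so its p is not given. Fry, a large scaffold protein of cell shape, went from 1, 1 and 1 to 7, 5 and 5 (2.02 ± 0.20, limma adjusted p = 0.00614), and the sorted libraries held 17 and 11 (Scf-GFP-positive) and 18 and 24 (Scf-GFP-negative). Fam189a1 went from 1, 2 and 1 to 6, 5 and 7 (1.86 ± 0.22, limma adjusted p = 0.0115), with 10 and 12 in Scf-GFP-positive and 1 and 1 in Scf-GFP-negative libraries. The calls at Fry and Fam189a1 held in all 6 left-out fits, and that at Fam189a1 was lost with all deposited peaks (limma adjusted p = 0.105) and on replicates 2 and 3 alone (0.273). Others that held, named after their values were seen, were Diaph3, an actin-nucleating formin, from 4, 5 and 4 to 9, 9 and 9 (limma adjusted p = 0.00614), and Cst3, the cysteine protease inhibitor cystatin C, from 2, 2 and 2 to 4, 4 and 5 (limma adjusted p = 0.00619).

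Cadps, a gene of dense-core vesicle release, had 1, 0 and 0 summits in control and 5, 10 and 10 in rMSC (3.55 ± 0.46), and 0 in all 4 sorted libraries. Cadps was called, but it reached the mean for the test through rMSC alone. Without rMSC replicate 2 its limma adjusted p was 0.0510. Slc24a3, a potassium-dependent sodium and calcium exchanger on chromosome 2, rose from 4, 3 and 5 to 19, 16 and 18 (2.03 ± 0.29, limma adjusted p = 0.0194). With lists equal on each chromosome the Slc24a3 call was lost (1.87, limma adjusted p = 0.0797). Of its 21 merged regions, 10 were present in all rMSC and no control library. Dock9, an exchange factor for Cdc42, rose from 4, 2 and 3 to 15, 15 and 9 (1.95 ± 0.27, limma adjusted p = 0.0185). Cdc42ep3, a Cdc42 effector, Dtna, a dystrobrevin, and the ubiquitin ligase gene Rnf144b had 0 or 1 summit in every control and 4 to 7 in every rMSC library. The calls at Slc24a3, Dock9, Cdc42ep3, Dtna and Rnf144b were all lost without rMSC replicate 1 and without rMSC replicate 2, and some without each of the other 4 libraries, at limma adjusted p up to 0.0919 (Dtna without rMSC replicate 3). Ggta1, Pkd1 and Zfp697 were called too and lost the call in 5 or 6 of the 6 left-out fits (up to 0.125).

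When regions were counted in place of loci, matrix proteases and collagens had the highest shares of control-alone regions among the 25 gene lists. Peaks of the 6 libraries were merged into regions, and a region counted for a culture when all 3 of its libraries and 0 of the other had a peak. Over all 42090 regions in protein-coding loci on the 17 chromosomes, 2075 (4.93%) belonged to rMSC alone and 2108 (5.01%) to control alone. In the loci of 27 matrix proteases and their inhibitors, 31 of 204 regions belonged to control alone (15.2%) and 4 to rMSC alone (1.96%). They lay at 11 members, led by Adam12 and Adamts16 with 5 each, the sheddase gene Adam19 with 4, and Mmp2 (gelatinase A), Adamts2 (procollagen peptidase) and Adamts17 with 3 each. For 22 collagens and other matrix genes the counts were 23 of 180 regions (12.8%) for control alone and 3 (1.67%) for rMSC alone, at 12 members against 2. Fbn1, the gene of fibrillin, had 5 of its 21 regions in control alone, Col3a1 3 of 8, Col5a1 3 of 13 with 2 in rMSC alone, and Fbln2 and Col4a1 2 each. The lists were chosen with results of these data known, so these shares are a description.

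By the locus test, 4 of 21 tested proteases on the 17 chromosomes fell and 0 rose, where 1.26% of all loci tested fell and 1.47% rose. Adamts16 and Adamts9 were among the 4, and both reached the mean for the test through control alone. The others were Mmp2, from 10, 9 and 7 to 5, 5 and 4 (-0.82 ± 0.16, limma adjusted p = 0.0438), and Adamts17, from 7, 7 and 7 to 1, 2 and 3 (-1.67 ± 0.27, limma adjusted p = 0.0281). The calls at Mmp2 and Adamts17 were lost without control replicate 1, control replicate 2 or rMSC replicate 2, and without other single libraries, at limma adjusted p up to 0.0838 for Adamts17 (without control replicate 1) and 0.124 for Mmp2 (without rMSC replicate 3). The list's median log2 change was -0.37, against 0.00 over all loci tested. Of 18 collagens and other matrix genes 0 passed in either direction, with a median of -0.29. Fbn1 held 14, 15 and 15 summits in control against 5, 6 and 7 (limma adjusted p = 0.123), Col3a1 5, 5 and 5 against 0, 2 and 0 (0.0611) and Adam12 16, 13 and 9 against 6, 4 and 6 (0.0547), so none of the 3 overlapped between the cultures. Fewer summits in rMSC without overlap were seen at 6.55% of all loci tested on the 17 chromosomes.

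Regions of the 27 stromal regulators and markers belonged to control alone in 21 of 240 cases (8.75%) and to rMSC alone in 8 (3.33%), including 4 at Ebf3, 3 at Ebf1 and 3 at Ebf2 for control, the transcription factors of the EBF family. Ebf2 held 8, 8 and 9 summits in control and 2, 3 and 3 in rMSC (limma adjusted p = 0.0834), and Ebf3 10, 9 and 11 against 4, 5 and 7 (0.213). Neither passed, and neither overlapped between the cultures. Such falls without overlap were seen at 6.55% of all loci tested on the 17 chromosomes. Pdgfra, a receptor used to sort stroma, had 5, 7 and 7 against 5, 6 and 7 summits, with 2 regions in control alone.

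Interferon genes, the textbook targets of Irf3 and Irf7, held more regions of rMSC alone than of control alone, at few sites. Of 132 regions in 43 loci, 11 belonged to rMSC alone (8.33%) and 2 to control alone (1.52%). Among the lists only chondrocyte genes had a larger share of rMSC-alone regions (7 of 56, 12.5%). The 11 lay at 9 members, where a region in the loci of neighbouring members counted at each of them. Among the 9 were Oas1a, Ifit2 and Parp14 with 2 each, and Ifi44, Oas3, Ifi27, Ifnar2 and Ifit3 with 1 each. The 2 of control lay at B2m and Dhx58. Promoters of this list were already open in all 6 libraries for 25 of 38 members. Oas1a and Ifi44, which make an RNA-sensing synthetase and an interferon-induced protein, had 0 summits in every control library and 2, 3 and 2, and 1, 3 and 2, in rMSC, too few for the test. Of 24 members tested on the 17 chromosomes, 2 rose and 0 fell, against 1.47% and 1.26% of all loci tested. Parp14, an ADP-ribosyltransferase, went from 1, 1 and 1 to 3, 3 and 3, and Ifi27 from 2, 2 and 2 to 4, 3 and 3 (limma adjusted p = 0.0422). Parp14 had no spread in either culture and reached the mean for the test through rMSC alone, so its p with the settings used here is not given. Parp14 could be tested in 3 of the 6 left-out fits and lost the call in all 3 (limma adjusted p up to 0.127, without control replicate 1). Ifi27 lost it in 5 of 6, those without control replicate 1, 2 or 3 or rMSC replicate 2 or 3 (up to 0.104). Ifit2, an RNA-binding antiviral protein, held 3, 4 and 4 against 6, 7 and 6 summits without overlap (limma adjusted p = 0.108). Of all loci tested on the 17 chromosomes, 8.67% rose without overlap. The list's median log2 change was 0.10.

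**Figure D3:**
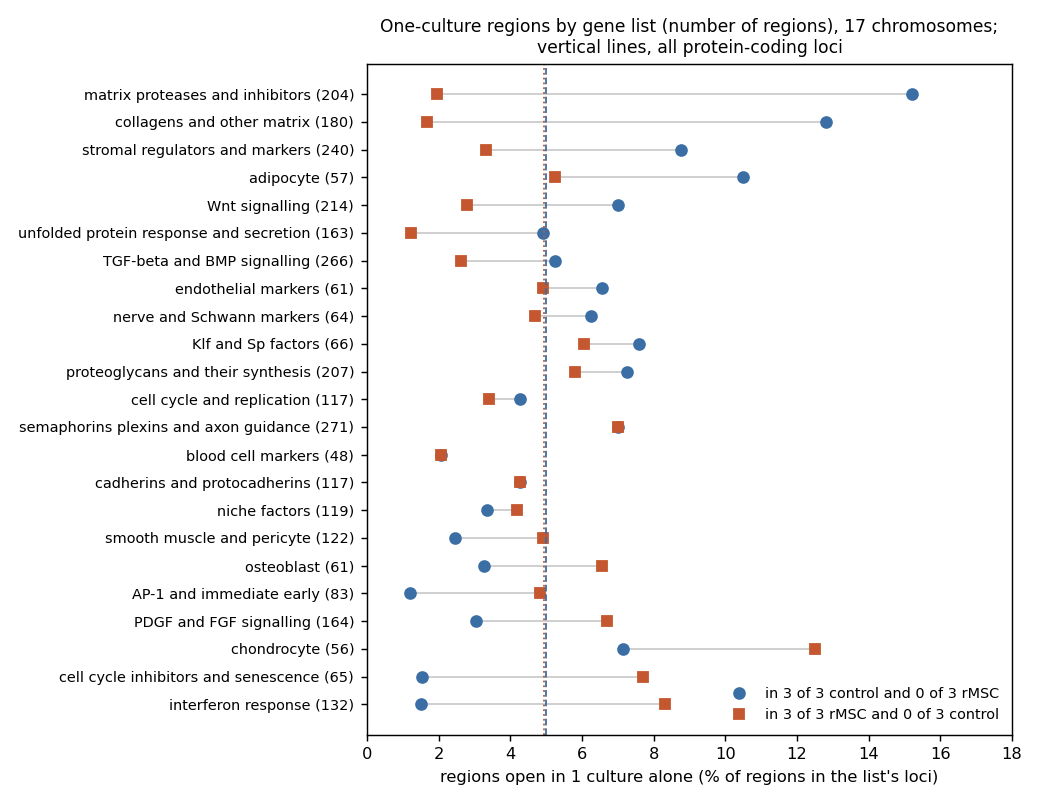
Percent of merged regions in the loci of the gene lists plotted, which leave out the transduced genes and 1 other list, that belong to rMSC alone or to control alone (peak in 3 of 3 libraries of a culture and 0 of 3 of the other), 17 chromosomes, with the level over all protein-coding loci as lines. Matrix proteases stand at 15.2% for control alone and 1.96% for rMSC alone, and interferon genes at 1.52% and 8.33%.

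Under 11 other choices of peaks, overlap and libraries, made after seeing the data, the order of the 2 cultures stayed as given for proteases, collagens, stromal regulators and interferon genes. Control-alone regions were 9.92% to 21.3% for proteases, against 1.95% to 6.01% for rMSC alone. Interferon regions of rMSC alone were 3.53% to 12.7% against 1.18% to 3.91%, the lowest from the strongest 20000 peaks, where the counts were 3 and 1 and the share over all protein-coding loci was higher, at 5.23%. In the other 10 choices the interferon share of rMSC alone lay above that over all loci, as the protease share of control alone did in all 11.

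Signalling lists held mixed changes. PDGF and FGF genes had 11 of 164 regions in rMSC alone (6.71%) and 5 in control alone (3.05%), and 3 of the 11 lay at Pdgfd. Wnt genes had 6 (2.80%) and 15 (7.01%) of 214 regions, TGF-beta and BMP genes 7 (2.63%) and 14 (5.26%) of 266. Over all protein-coding loci the shares were 4.93% and 5.01%, so the control-alone share of TGF-beta and BMP genes was near that level. Ror2 held 5, 5 and 6 summits in control and 2, 2 and 2 in rMSC (limma adjusted p = 0.123), and Tgfbr3, betaglycan, fell from 16, 16 and 14 to 9, 10 and 8 (-0.74 ± 0.15, limma adjusted p = 0.0459), a call lost in all 6 left-out fits (up to 0.130 without rMSC replicate 3). The cartilage factors Sox6 and Sox5 had changes of opposite sign, and neither passed. Sox6 held 4, 1 and 4 summits against 8, 7 and 8 (limma adjusted p = 0.116), with 4 of 12 regions in rMSC alone, and Sox5 9, 13 and 12 against 7, 5 and 5 (0.102), with 4 of 20 in control alone. Phex, an endopeptidase gene of bone cells, fell from 4, 5 and 3 to 1, 0 and 1, a call that reached the mean for the test through control alone. Ncam1 fell from 12, 14 and 10 to 4, 5 and 7 (limma adjusted p = 0.0470). Both calls were lost without control replicate 1 (0.126 and 0.125) and without 3 or 4 of the other libraries. Genes of the unfolded protein response, the pathway of Xbp1, had 0 of 29 tested loci called, promoters open in all 6 libraries for 35 of 36 members, and 2 of 163 regions in rMSC alone (1.23%) against 8 in control alone (4.91%, near the 5.01% over all loci).

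Counted over the genome, most regions of a single culture were distal. Of 10653 regions near a gene start on the 17 chromosomes, 7376 (69.2%) had a peak in all 6 libraries, 186 (1.75%) in rMSC alone and 190 (1.78%) in control alone. Of 47801 distal regions, 7710 (16.1%) were shared by all 6, 2841 (5.94%) were of rMSC alone and 3277 (6.86%) of control alone. Those of rMSC alone lay nearer to gene starts, at a median of 29167 bp, than those of control alone, at 43281 bp, and regions shared by all 6 lay at 25182 bp. On chromosomes 4, 10 and 15 together, rMSC alone took 51 of 2038 regions near starts (2.50%) and 985 of 11000 distal ones (8.95%), and control alone 26 (1.28%) and 609 (5.54%).

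The strongest distal regions of rMSC alone on the 17 chromosomes, by rank within each list, included chr8:19280635-19282274, between genes and 11892 bp from the start of Defb3, and chr7:130982211-130983288, inside the serine protease gene Htra1 and 46340 bp from its start. Another, chr1:82199563-82200543, lay between genes, 91381 bp from the start of Irs1, the insulin receptor substrate, and was the only 1 of the 6 leading regions also listed in sorted Scf-GFP-positive stroma, in 2 of 2 libraries. Among those of control alone, chr2:91312371-91313802 in 1110051M20Rik, chr8:25069769-25071391 in Plekha2 and chr6:117465079-117466234 were listed in 2 of 2 Scf-GFP-positive libraries. The last lies between genes, and its nearest known start, 297290 bp away, is that of Cxcl12. Coordinates are mm10, counted from 1. All 12 leading regions were absent from Scf-GFP-negative lists.

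Freshly sorted Scf-GFP-positive stroma, the cells both cultures began from, shared a larger part of the control-alone than of the rMSC-alone regions. In the 2 Scf-GFP-positive libraries, 27.0% (exact Clopper-Pearson 95% interval 25.5% to 28.6%) and 25.7% (24.2% to 27.3%) of the distal regions of control alone had a peak, against 14.6% (13.4% to 16%) and 16.4% (15.1% to 17.9%) of those of rMSC alone and 51.8% and 54.4% of those shared by all 6. Near gene starts the shares were 70.0% and 69.5% for control alone, 45.2% and 46.8% for rMSC alone and 97.9% and 97.8% for all 6. Promoters that closed in rMSC had a peak in 75.8% and 77.9%, and those that opened in 51.9% and 54.8%. In Scf-GFP-negative libraries the order at distal sites was the reverse, with 3.33% and 4.46% for control alone and 6.41% and 9.54% for rMSC alone. Control and Scf-GFP-positive libraries were not tested against each other here, and the intervals cover counting error within a library.

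**Figure D4:**
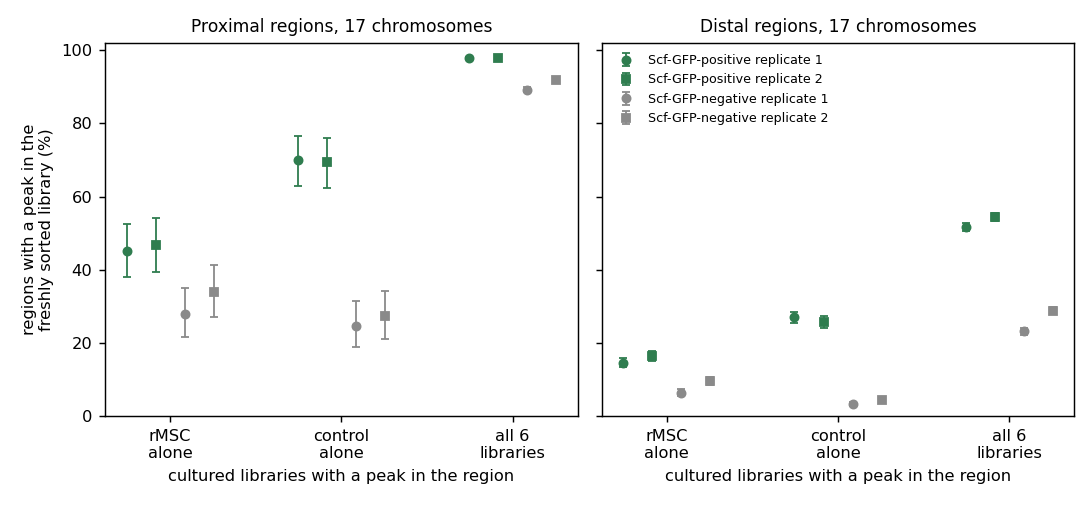
Percent of regions of rMSC alone, of control alone and shared by all 6 cultured libraries that have a peak in each freshly sorted library, for regions near gene starts (left) and distal regions (right), with 95% Clopper-Pearson intervals. In both Scf-GFP-positive libraries control-alone regions (27.0% and 25.7% at distal sites) stand above rMSC-alone ones (14.6% and 16.4%).

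Of the 3 chromosomes kept apart, 10 and 15 differed along their whole length and 4 over part of it. Chromosome 10 took 5.86%, 6.00% and 5.86% of all deposited peaks in control and 7.62%, 8.46% and 9.56% in rMSC, and chromosome 15 took 4.46%, 4.39% and 4.40% against 6.03%, 6.39% and 7.0%. Chromosome 4 took 5.96%, 5.91% and 5.98% in control and 4.97%, 4.67% and 4.54% in rMSC. The 3 were set apart for these shifts, so the values are a description with no test. The cultures did not overlap on 12 of the other 17 chromosomes either, by smaller log2 ratios of -0.20 to 0.09. These shares have a fixed total, so the rises on chromosomes 10 and 15 by themselves lower the shares of other chromosomes. Cut into windows of 20 Mb, with the lists of equal length, all 7 windows of chromosome 10 and all 6 of chromosome 15 held more summits in every rMSC than in every control library, by 0.26 to 0.43 and 0.45 to 0.59 on the log2 scale, and 5 of 8 windows of chromosome 4 held fewer, while the other 3 overlapped. In these lists the 17 other chromosomes were not flat. On chromosome 2, 10 of 10 windows were higher (0.12 to 0.44), although its share of all deposited peaks overlapped between the cultures (7.72%, 7.73% and 7.68% against 7.73%, 7.49% and 7.58%). On chromosomes 3 and 19, 5 of 8 and 3 of 3 windows were higher and 0 lower, although their shares of deposited peaks were lower in rMSC. On chromosomes 9 and 12, 6 of 7 and 5 of 6 windows were lower. Locus calls leaned the same way on chromosomes 2 and 9. Of 677 loci tested on chromosome 2, 19 were higher and 7 lower, and of 447 on chromosome 9, 2 and 12. Over the 17 chromosomes 1.47% were higher and 1.26% lower. Calls did not always follow the windows, as on chromosome 17, with 10 of 447 loci higher and 1 lower but 1 of 5 windows higher. With lists made equal on each chromosome, 87 of the 185 called loci that could be tested remained. The cause of the chromosome-wide differences was not tested.

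**Figure D5:**
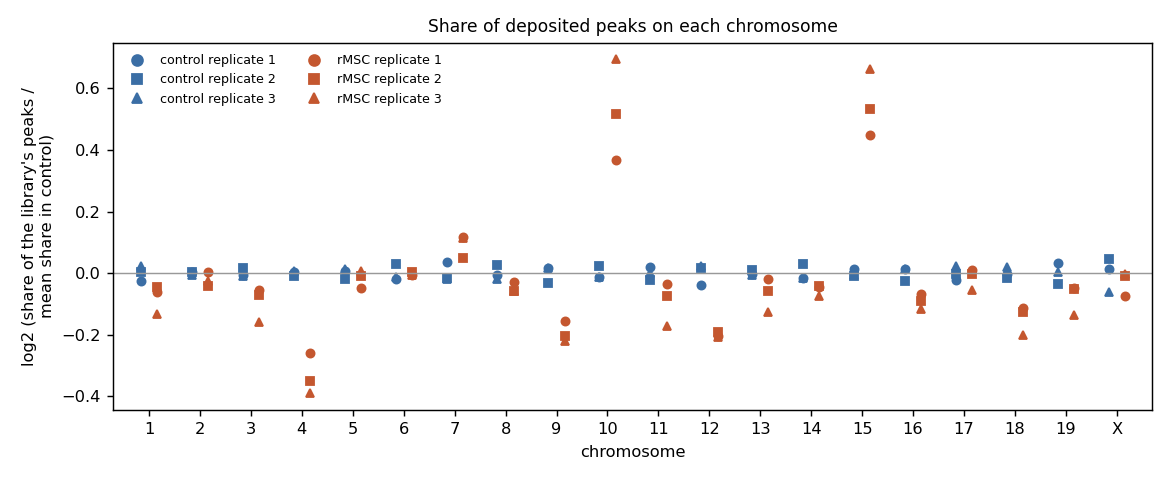
Share of a library's deposited peaks on each chromosome, as log2 of its ratio to the mean control share, 1 point per cultured library. All 3 rMSC libraries lie above control on chromosomes 10 and 15, by a mean log2 ratio of 0.53 and 0.55, and below it on chromosome 4, by -0.33.

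Loci on chromosomes 10 and 15 carried that shift, with median log2 changes of 0.33 over 554 and 0.39 over 466 tested loci, whereas the median over 491 loci of chromosome 4 was 0.00. More summits in rMSC were called at 26 loci of chromosome 10, 32 of chromosome 15 and 2 of chromosome 4, and fewer at 1, 1 and 10. Over the 1511 loci of the 3 chromosomes these are 3.97% higher and 0.794% lower. Timp3, an inhibitor of matrix metalloproteases on chromosome 10, rose from 7, 9 and 8 to 24, 31 and 26 (1.69 ± 0.13, limma adjusted p = 0.00191), with 6 and 6 in Scf-GFP-positive and 2 and 2 in Scf-GFP-negative libraries, but with lists equal on each chromosome the change was 0.57 and did not pass (limma adjusted p = 0.184). Wif1, a secreted Wnt inhibitor, rose from 1, 1 and 1 to 5, 3 and 4 (1.56 ± 0.16, limma adjusted p = 0.00614), and the muscle transcription factor locus Myf6 went from 0, 0 and 0 to 4, 4 and 4, with 0 summits in all 4 sorted libraries. Myf6 had no spread in either culture and reached the mean for the test through rMSC alone, so its p is not given. Musk, a receptor kinase of the nerve-muscle junction on chromosome 4, went from 5, 5 and 4 to 0, 0 and 0. Musk reached the mean for the test through control alone, so its p with the settings used here is not given. The calls at Timp3 and Wif1 held in all 6 left-out fits, and Musk could be tested in 4 of them. With all deposited peaks those at Wif1 and Musk were lost (limma adjusted p = 0.0969 and 0.0890), on replicates 2 and 3 alone that at Wif1 (0.0811), and with the strongest 20000 peaks that at Timp3 (0.377). Ror1, a Wnt5a receptor on chromosome 4, fell from 8, 10 and 11 to 5, 4 and 4 (-1.07 ± 0.18, limma adjusted p = 0.0290) and lost the call in each left-out fit (up to 0.0919 without rMSC replicate 3). The named loci Adcy8, Lypd2, Usp44, Chst11, Lgr5 and E2f7 (higher) and Slc24a2, B4galt1 and Luzp1 (lower) also lost the call without 3 or more of the 6 libraries, at limma adjusted p up to 0.139. With a flow cell term those at Adcy8, Lypd2, Usp44, Chst11, Lgr5, B4galt1 and Ror1 were lost (0.0516 to 0.0743). With lists equal on each chromosome those at Lypd2, Chst11, E2f7, Slc24a2, B4galt1 and Luzp1 were lost (limma adjusted p from 0.0629 to 0.770).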

How the data were processed

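Per the labels, ATAC-seq libraries of 2700 to 5000 sorted cells were read as pairs of 100 bp. BWA, MACS2 and the build mm10 are named in the submitters' processing notes, with versions not given in the sources used here. Peak lists were deposited by the authors, 1 per library, and give each peak a −log10 p and a −log10 q. The lowest −log10 q in the equal-length lists of the cultures was 4.615 to 5.802. Read counts were not used here. Summits on chromosomes 1 to 19 and X were assigned to 21631 protein-coding genes of RefSeq GRCm38.p6. Starts were listed for 17274 genes, none on chromosome 18, and both gene ends served as starts for the other 4357 in the 1 kb class. Loci averaging 2 or more summits over the 6 cultured libraries were fitted with limma 3.58.1 with trend (R 4.3.3) in all 10 libraries and 4 groups, with 6 residual and 1.399 prior degrees of freedom, two-sided. Log2 changes understate those of low loci. The fit was tested on simulated counts with Poisson spread for 8872 loci, where it called 6 of 100 4-fold and 0 of 100 2-fold changes, so loci that missed the threshold may differ. Some called loci had equal counts within each culture, so real counts may scatter less than Poisson ones. These rates need not hold for the real lists. Same-numbered replicates did not deviate together across loci (correlations of -0.007, -0.006 and 0.008), so numbers were not used as pairs. Named were the 12 loci per direction on the 17 chromosomes, and the 4 on chromosomes 4, 10 and 15, with the largest log2 change among those that passed without overlap (no numbered clones or olfactory receptors, 1 per 50 kb), up to 3 passing members per list and direction, the 5 transduced genes, Kitl and Cxcl12, and the 8 promoters and 6 distal regions of each culture with the highest rank of −log10 p. The comparison, the 25 gene lists and the motifs were chosen with earlier results of these data known, and 1 of the lists and some genes are not reported here. Python 3.11.15, pandas 2.3.3 and scipy 1.17.1 were used for the rest.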

Additional observations from a re-analysis of the deposited data

How the results depend on the processing

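Likeness between libraries and the shares of chromosomes 4, 9, 10, 12 and 15 kept direction in all 58 recomputed values. Their size was not held to a limit, and for chromosome 10 it was 2.14 to 3.10 points leaving out 1 library. Numbers of called loci moved most. In the order higher and lower on the 17 chromosomes (108 and 93), then higher and lower on chromosomes 4, 10 and 15 (60 and 12), all deposited peaks gave 21, 9, 11 and 2. No filter gave 338, 304, 111 and 35, a flank of 50 kb 212, 162, 131 and 27, a flow cell term 62, 51, 33 and 6, and the second flow cell alone 336, 247, 92 and 36. With the replicate number as a block the calls were 21, 21, 11 and 2, the numbers not being pairs by the check above. No flank gave 41, 55 and 33, and a mean of at least 4 summits 32, 53 and 29, in the first 3 classes. Only control and rMSC in the fit gave 178 higher, and equal chromosome totals 19 higher on chromosomes 4, 10 and 15. Leaving out 1 library gave 30 to 87, 20 to 54, 16 to 29 and 1 to 6.

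The second flow cell alone, which asks for 2 of 2 against 0 of 2 libraries, gave 184 opened and 162 closed promoters, 340 and 319 regions near starts and 4558 and 5066 distal regions of rMSC and control alone, and on chromosomes 4, 10 and 15 24 closed promoters and 87 and 44 regions near starts. Leaving out 1 library gave 121 to 162 opened promoters, and on chromosomes 4, 10 and 15 16 to 25 closed ones and 32 to 43 control-alone regions near starts. With 2.5 kb in place of 1 kb the regions near starts numbered 365 and 312, and 107 and 43 on those chromosomes. Peaks over at least 50% of a region gave 288 and 119 for rMSC alone. The strongest 20000 peaks gave 1803 and 1928 distal regions, and 340 of control alone on chromosomes 4, 10 and 15.

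Reversed signs were the promoter share (-0.827 points with all peaks, -0.247 to 0.585 leaving out 1 library), the share within 50 kb of a gene (-0.00399 at 2.5 kb), and loci that did not pass: Ostf1 (-0.08 with equal chromosome totals), Xbp1 (-0.05 with 50 kb flanks, -0.08 to 0.53 leaving out 1 library), Irf3 (-0.04 with 50 kb flanks) and Kitl (0.55 with all peaks, 0.07 with 50 kb flanks). Of 826 values for named loci, 485 kept their side of the threshold and 334 no longer passed. The causes were not tested. Depth per library is unknown, so no detection limit can be given.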

Other observations

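Adipocyte genes, which include the fat cell regulators Pparg and Cebpa, held 35 to 39 summits in all in the control libraries and 27 to 28 in the rMSC libraries, which did not overlap. Of 10 tested loci 0 passed with limma, with a median log2 change of -0.53 against 0.00 over all loci, and 3 of 57 regions (5.26%) were of rMSC alone against 6 (10.5%) of control alone, where all protein-coding loci had 4.93% and 5.01%. PDGF and FGF genes summed to 82 to 96 summits in control and 114 to 120 in rMSC, with 1 of 21 tested loci on the 17 chromosomes rising, that of Pdgfd, and 0 falling (1.47% and 1.26% of all loci). Cell cycle inhibitors and senescence genes held 60 to 62 and 71 to 76, with 5 of 65 regions in rMSC alone (7.69%) and 1 in control alone (1.54%), and 0 of 11 tested loci on the 17 chromosomes passing. Some members of this and the former list lie on chromosomes 4, 10 and 15. These sums and counts carry no test.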
